A study of Mus musculus with 12 samples.

Results

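This comparison set 3 libraries of knockdown cells that expressed a full-length Ldb1 construct (FL) against 3 libraries of knockdown cells with no construct (KD), 6 of the 12 libraries of the series. All 12 were made from induced MEL cells. MEL is a line of mouse erythroleukemia cells that mature toward red cells under chemical inducers. The FL and KD cells share the knockdown of LDB1, so they differ, per the labels, in the construct. The other groups were induced MEL cells labelled control and knockdown cells with a construct named delta 4/5 (delta45), with 3 libraries each. The labels do not name the inducer, its duration, the way LDB1 was knocked down, the promoter of the construct, or whether a line was a single clone. Separate cultures are not stated either. P-values therefore reflect the scatter of these libraries, part of which may be technical.

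LDB1 binds no DNA itself. It binds LIM-domain proteins such as LMO2 and joins with other LDB1 molecules, and in red cell precursors it holds GATA1, TAL1 and LMO2 together in a complex that occupies enhancers and promoters and brings them near each other. During red cell maturation the precursor makes hemoglobin, rebuilds its membrane with a specific set of transporters and pumps, divides a last few times and leaves the cell cycle. The comparison asks which genes differed once the full-length protein was put back into knockdown cells.

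The libraries held 8783970 to 12889381 reads assigned to genes in KD and 9780096 to 19384213 in FL. Levels are CPM, gene reads scaled to the library's TMM-adjusted size, and are comparable between libraries for 1 gene but not between genes, since they are not divided by gene length. Changes are log2 of FL over KD ± SE from edgeR's quasi-likelihood test with all 12 libraries in the fit, with Benjamini-Hochberg adjusted p-values, and a gene is called at an adjusted p under 0.05. The 3 FL libraries resembled each other more than the 3 KD libraries did: Pearson correlations of log2 (CPM + 1) were 0.992 to 0.997 in FL and 0.957 to 0.981 in KD. The mean log2 level of 30 interferon response genes stood 0.446, 3.54 and 4.72 above the FL mean in KD replicates 1, 2 and 3. In 12 erythroid markers the same libraries stood 3.13, 2.64 and 2.13 below the FL mean. Reads outside genes were 2.12 to 3.08% of tallied reads in KD and 3.50 to 4.96% in FL, highest in replicate 1 of each group, and the nuclear RNA Malat1 took 0.0690% of gene reads in KD replicate 1 against 0.0122 and 0.00550% in the other two, and 0.300% in FL replicate 1 against 0.125 and 0.144%. Control served for orientation only: 14 genes with a mean above 20 CPM in control were under 1 CPM in KD, FL and delta45, and 4, Tmsb4x and Slc44a4 among them, showed the reverse.

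Ldb1 reads were higher in FL, but reads from the construct and from the cell's own gene cannot be told apart. Ldb1 went from 159, 132 and 97.1 CPM in KD to 3696, 3411 and 3209.7 CPM in FL, while control had a mean of 718 ± 71.2 CPM (SD, n = 3). The lowest FL library was far above the highest KD library, and FL exceeded KD by 26.5-fold (log2 4.73 ± 0.18, adjusted p = 1.64e-09). Every FL library was also far above the control mean, so Ldb1 RNA in FL was not at the control level.

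Of 12837 genes tested, 58.0% were called. Those higher in FL made up 26.3% of tested genes (3382) and those lower 31.7% (4063), and the median log2 change over all tested genes was -0.06. Large changes leaned to the lower side: 1258 genes rose and 2055 fell at least 2-fold, 270 rose and 814 fell at least 4-fold, and 22 rose and 152 fell at least 16-fold. The FL and KD libraries did not overlap in 59.7% of tested genes, with FL above KD in 28.4% and KD above FL in 31.3%. The split of calls depends on the scaling. A few abundant genes took a larger share of FL libraries: the 20 genes with the largest gain, globins, Tfrc and Alas2 among them, went from 0.783 to 0.926% of gene reads in KD to 6.74 to 7.18% in FL. Scaling to library totals alone, which does not correct for this, gave 2048 genes higher and 5631 lower, so that 26.7% of calls were higher in place of 45.4%, and it moved the median of all genes to -0.33. Counts below are therefore to be read against 26.3% and 31.7%, and counts under library totals are given for lists where a count moved by over 1.5 times or the balance turned.

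**Figure D1:**
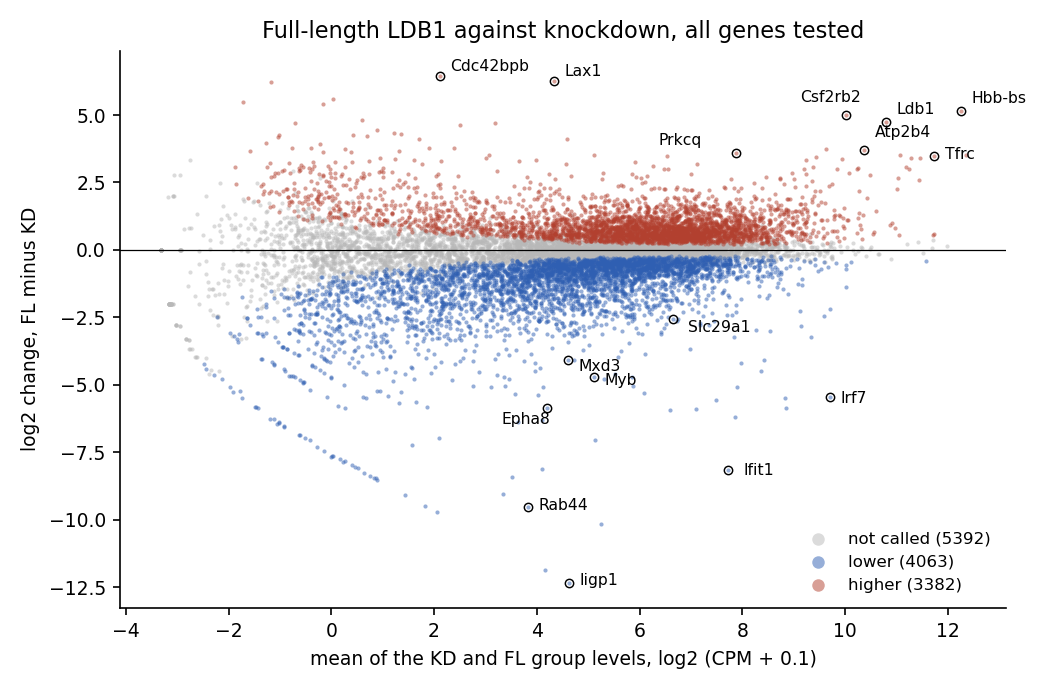
Each point is 1 of 12837 tested genes, with the mean of the 2 group levels on the x axis (log2 of CPM + 0.1) and the log2 change of FL over KD on the y axis, red for genes called higher and blue for genes called lower. Ldb1, Csf2rb2, Hbb-bs, Tfrc and Atp2b4 combine high levels with changes above 3. The labelled genes lower by more than 7.5 on the log2 scale are the interferon genes Iigp1 and Ifit1, and Rab44, which is not among the interferon genes.

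Apart from globins and Ldb1 itself, the genes with the largest gains were of several kinds. Lax1 had 0.488, 0.434 and 0.613 CPM in KD and 43.1, 37.3 and 39.2 CPM in FL; Lax1 is an adaptor of lymphocyte signalling. Each FL library was far above every KD library (log2 6.25 ± 0.27, adjusted p = 3.82e-09), and control was as low as KD, at 0.476 ± 0.299 CPM. Csf2rb2 was at 43.3, 68.8 and 79.4 CPM in the KD libraries and 2241, 1825 and 1994 CPM in the FL libraries. This gene encodes the mouse-specific beta chain of the interleukin 3 receptor and is a close copy of Csf2rb, so reads of the pair are partly uncertain; the groups did not overlap (log2 4.99 ± 0.20, adjusted p = 2.94e-09). Cdc42bpb, a kinase that acts downstream of CDC42, had 3 reads over the KD group and 8.33, 9.18 and 7.71 CPM in FL, a ratio of 96.1 (95% counting interval 32.5 to 469). Ltbp2, a protein of the extracellular matrix, rose by log2 4.69 ± 0.26, the translation regulator Cpeb4 by 3.76 ± 0.30 and Slamf1, a surface receptor of blood cells, by 4.13 ± 0.38 (4.98 without KD replicate 1). Slamf1 stayed below control in FL, at a mean of 6.001 against 36.9 CPM.

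Among the 12 genes with the largest losses, Iigp1, Rtp4, Ifi44, Cxcl10, Ifit1, Gbp3, Oasl2 and Oasl1 are interferon-induced. Ifit1 went from 2.93, 213 and 1052 CPM in KD to 1.88, 1.86 and 1 CPM in FL. KD replicate 1 was near the FL level and replicates 2 and 3 were far above it, and without KD replicate 3 the log2 change went from -8.14 to -6.16. All 30 interferon response genes tested were lower in FL, with a median log2 change of -4.08, but only 18 had every KD library above every FL library. When each library was left out in turn 28 to 30 were lower, with a median of -2.91 without KD replicate 3. With only the 6 FL and KD libraries in the fit 26 were lower. The other 4 genes had no such pattern. Rab44 had 50.5, 21.1 and 13.1 CPM in KD and 0, 0.116 and 0 CPM in FL; Rab44 is a GTPase of the RAB family, and its FL libraries held 1 read in all, so KD exceeded FL by a ratio of 1075 (95% counting interval 192 to 42484). Rasl11b, a small RAS-like GTPase, had no reads in FL and 3.49, 6.08 and 6.13 CPM in KD, so it was at least 59.03-fold lower against a floor of 3 reads over the group. Nos1 was at 30.7, 27.4 and 14.8 CPM in the KD libraries and 0.208, 0.465 and 0.235 CPM in the FL libraries; this is the neuronal nitric oxide synthase (log2 -6.36 ± 0.36, adjusted p = 2.25e-08). The transcription factor gene Tcf23 had 1 read in FL and 6.83, 6.84 and 3.502 CPM in KD.

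The labelled cell type was checked against its markers. The 12 erythroid markers summed to 3146 to 5659 CPM in KD and 34145 to 41172 CPM in FL, 9 were higher in FL and none lower, and none was at 0. Megakaryocyte markers also rose in sum, from 805 to 849 CPM to 2818 to 2925 CPM, but of 9 tested 3 were higher (Itga2b by 3.002 ± 0.10, Gp1ba by 1.81 ± 0.17) and 4 lower (2 to 3 lower when each library was left out), and Tubb1 stayed under 1 CPM. Itga2b and Gp1ba encode subunits of the platelet receptors for fibrinogen and von Willebrand factor. Itga2b made up most of the FL sum, at 252, 268 and 279 CPM in KD and 2080, 2200 and 2127 CPM in FL. Among the 4 lower members were Gp1bb (log2 -3.15) and Vwf (log2 -0.98). Myeloid markers summed to 32.9 to 42.9 CPM in KD and 14.7 to 18.0 CPM in FL, with 2 of 6 higher and 3 lower and with Csf3r and Ctsg at 0 reads. Lymphoid markers summed to 33.1 to 45.6 CPM against 6.25 to 9.65 CPM, both tested members being lower and Cd8a and Ms4a1 at 0. Mast cell and basophil markers summed to 0.977 to 2.23 CPM in KD and 0.116 to 0.417 CPM in FL (1 of 2 lower, 0 without KD replicate 1; Mcpt8, Tpsb2, Ms4a2 and Fcer1a at 0), and stromal and endothelial markers at 22.1 to 53.1 against 22.5 to 29.8 CPM (2 of 3 lower, 1 when any library but KD replicate 3 was left out and 3 without KD replicate 3; Col1a2 and Col3a1 at 0). In bulk RNA, fewer cells of a kind and less RNA per cell cannot be told apart.

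Partners of LDB1 moved both ways. Of 16 tested genes of the complex and its partners, 7 were higher and 5 lower, which became 5 and 6 under library totals. Lyl1 went from 80.9, 171 and 183 CPM in KD to 32.2, 45.3 and 41.2 CPM in FL; LYL1 is a close relative of TAL1, and its FL libraries were all below the lowest KD library (log2 -1.87 ± 0.25, adjusted p = 3.33e-05). Of the single-stranded DNA binding proteins that protect LDB1 from breakdown, Ssbp3 fell by 1.13 ± 0.11 and Ssbp4 by 0.84 ± 0.20 on the log2 scale while Ssbp2 rose by 0.60 ± 0.14. Runx1 rose by 1.05 ± 0.16 and Cbfa2t3, a corepressor of the complex, by 1.904 ± 0.12. The TAL1 partner gene Tcf12 rose by 0.74 ± 0.15 and Tcf3 had a change of -0.56 ± 0.16, a call lost without KD replicate 2 or FL replicate 1. Tal1 (log2 0.61 ± 0.19) and Zfpm1 (log2 0.65 ± 0.17) were called higher and lost the call under library totals. Lmo2 (log2 -0.20 ± 0.13) and Klf1 (log2 0.08 ± 0.24) were not called. All 7 globin genes tested were higher, with a median of 3.51, and 20 of 25 genes of the red cell membrane and skeleton were higher and 3 lower, with a median of 1.27.

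Transporters, pumps and channels were called about as often as all genes. Of 390 tested, 96 were higher and 130 lower, with a median of -0.08 (60 and 181 under library totals). Among the largest gains were the calcium pump genes Atp2b4 and Atp2a3, the sugar phosphate exchanger gene Slc37a2, the water channel gene Aqp9 and the choline carrier gene Slc44a1, and subunits of the vacuolar proton pump were higher or not called. Ion channels were lower more often than higher, and carriers of nucleosides, folate and amino acids had members that fell.

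**Figure D2:**
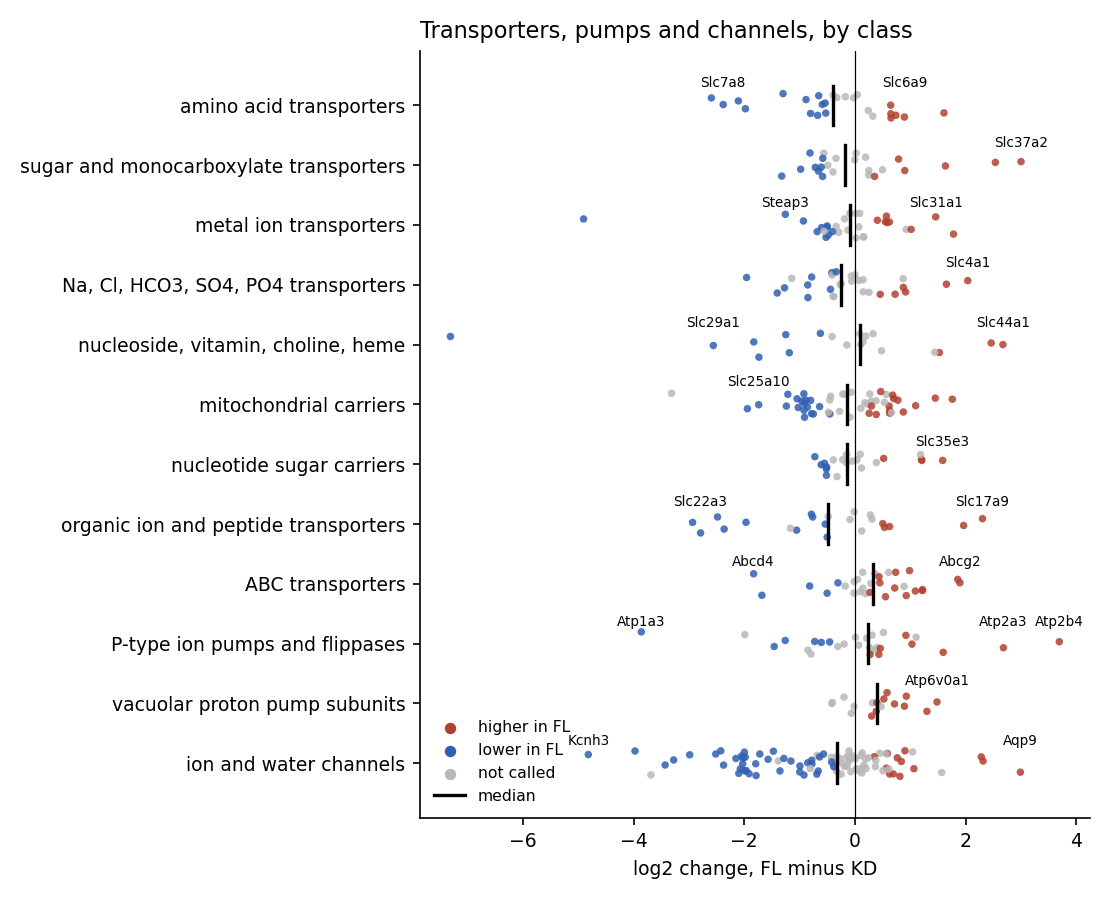
Each point is a tested gene of 12 transporter classes (390 genes in all), placed by its log2 change of FL over KD, red if called higher, blue if called lower and grey if not called; black bars are class medians and the vertical scatter has no meaning. Atp2b4 and Atp2a3 stand at the right end of the P-type pumps, and Slc29a2 and Slc30a3 at the left end are genes of about 1 CPM in KD with 0 and 1 read in FL.

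Among P-type pumps the calcium pump genes Atp2b4 and Atp2a3 had the largest gains. Atp2b4 had 274, 189 and 110.4 CPM in KD and 2946, 2267 and 2203 CPM in FL; it encodes PMCA4, the calcium pump of the red cell's plasma membrane. The lowest FL library was far above the highest KD library, and the change was 3.69 ± 0.26 (adjusted p = 1.69e-07), with a control mean of 432 ± 35.5 CPM. Atp2a3 was at 640.3, 612 and 443 CPM in the KD libraries and 3753, 3550.0 and 3593 CPM in the FL libraries; this pump, SERCA3, fills the endoplasmic reticulum with calcium (log2 2.68 ± 0.13, adjusted p = 8.75e-09). Tmem30a, the shared subunit of the lipid flippases, rose by 1.596 ± 0.31, whereas the Golgi calcium and manganese pump gene Atp2c2 fell by 1.26 ± 0.17 and the flippase gene Atp8a1 by 0.73 ± 0.19. Of 28 P-type pumps and flippases, 8 were higher and 6 lower, with a median of 0.24. The balance turned to 5 and 6 without FL replicate 1 or FL replicate 3, to 6 and 6 without FL replicate 2, to 7 and 8 without KD replicate 3, and to 4 and 8 under library totals. The 17 subunits of the vacuolar proton pump, which acidifies endosomes and lysosomes, had 10 higher and 0 lower (2 lower without KD replicate 1, 1 without KD replicate 2 or with the replicate block, and 5 higher and 3 lower under library totals). Atp6v0a1 went from 85.9, 107 and 108 CPM in KD to 307, 264 and 269 CPM in FL. Atp6v0a1 and Atp6v0a2 are membrane subunits that place the pump, and they rose by 1.48 ± 0.11 and 1.302 ± 0.10, and the catalytic subunit gene Atp6v1a rose by 0.93 ± 0.12.

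Single carriers of sugar phosphates, glycerol and choline rose. Slc37a2 had 20.8, 19 and 19.1 CPM in KD and 185, 142 and 145 CPM in FL. It exchanges glucose 6-phosphate for phosphate across the endoplasmic reticulum membrane, and no FL library came near the KD range (log2 3.003 ± 0.13, adjusted p = 4.54e-09). Aqp9 was at 27.6, 17.7 and 17.5 CPM in the KD libraries and 174, 165 and 163 CPM in the FL libraries; AQP9 passes water, glycerol and urea (log2 2.99 ± 0.17, adjusted p = 2.21e-08). Slc44a1 went from 169, 90.4 and 85.7 CPM in KD to 789, 688 and 731 CPM in FL; SLC44A1 carries choline, and KD replicate 1 was the highest KD library (log2 2.67 ± 0.24, adjusted p = 1.17e-06). Slc44a4, a carrier of thiamine pyrophosphate, rose by 2.46 ± 0.16, from a KD mean of 20.5 to an FL mean of 113 CPM, and control stood at 0.0196 CPM. Slc14a1, the red cell urea transporter, rose by 1.53 ± 0.18, the copper importer Slc31a1 by 1.46 ± 0.13, the phosphate importer Slc20a1 by 1.65 ± 0.18 and Slc17a9, which loads nucleotides into vesicles, by 2.31 ± 0.23. Among ABC transporters 13 of 30 were higher and 5 lower (median 0.32). Abcg2, an exporter of urate and porphyrins, rose by 1.897 ± 0.18, Abcb4, which moves phosphatidylcholine, by 1.22 ± 0.10 and the organic anion exporter Abcc3 by 1.86 ± 0.37, and Abcd4, a lysosomal cobalamin transporter, fell by 1.83 ± 0.21. Slc4a1 had 1.46, 7.82 and 13.4 CPM in KD and 30.8, 29.99 and 30.7 CPM in FL. SLC4A1, band 3, is the chloride and bicarbonate exchanger of the red cell, and the KD libraries were uneven while the FL libraries were nearly equal. Its log2 change was 2.04 ± 0.46 (adjusted p = 0.00208), or 2.83 without KD replicate 3, and control, at a mean of 57.5 CPM, was higher than FL.

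Several carriers of nucleosides, folate and amino acids fell. Slc29a1 was at 185, 160.3 and 168 CPM in the KD libraries and 26.7, 30.6 and 29.9 CPM in the FL libraries; this is ENT1, the main equilibrative nucleoside carrier (log2 -2.56 ± 0.11, adjusted p = 4.22e-09). Control resembled KD, at 184 ± 13.7 CPM, and FL was below both. Slc19a1 went from 23.1, 20.95 and 19.5 CPM in KD to 6.04, 6.16 and 5.77 CPM in FL; the reduced folate carrier fell without overlap (log2 -1.83 ± 0.16, adjusted p = 8.77e-07). Riboflavin carrier Slc52a3 fell by 1.74 ± 0.14 on the log2 scale. In that class of 19 genes (nucleosides, vitamins, choline, heme) 3 were higher and 7 lower, 5 and 7 without KD replicate 1. Amino acid transporters had 6 of 25 higher and 12 lower (median -0.39; 3 and 15 under library totals): Slc7a8, which exchanges neutral amino acids, fell by 2.38 ± 0.19, the cationic amino acid exchanger Slc7a7 by 2.11 ± 0.19 and the arginine and lysine carrier Slc7a3 by 1.98 ± 0.36, while the glycine carrier Slc6a9 rose by 0.89 ± 0.24. The glucose carrier Slc2a1 fell by 0.98 ± 0.24, and sugar and monocarboxylate transporters had 6 of 24 higher and 8 lower (8 and 6 without KD replicate 2).

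In most of the remaining classes the counts each way were close, and the balance turned with single libraries. Metal ion transporters had 8 of 31 higher and 10 lower (10 and 7 without KD replicate 1, 8 and 8 without FL replicate 2, 8 and 7 without FL replicate 3), and the endosomal ferrireductase Steap3 fell by 1.26 ± 0.10. Transporters of sodium, chloride, bicarbonate, sulfate and phosphate had 6 of 29 higher and 9 lower, 10 and 6 without KD replicate 1 and 6 and 5 without KD replicate 2, 6 and 6 without FL replicate 3, and 3 and 12 under library totals; Slc8b1, the sodium and calcium exchanger of mitochondria, fell by 1.404 ± 0.11 and the phosphate carrier Slc20a2 by 1.27 ± 0.12. Mitochondrial carriers had 14 of 50 higher and 18 lower (19 and 17 without KD replicate 1, 8 and 26 under library totals). The dicarboxylate carrier Slc25a10 fell by 1.74 ± 0.13 and the ornithine carrier Slc25a15 by 1.24 ± 0.20, and the oxoglutarate carrier Slc25a11 rose by 0.78 ± 0.12. Nucleotide sugar carriers had 4 of 21 higher and 6 lower (6 and 5 without KD replicate 1, equal numbers without KD replicate 3, FL replicate 1 or FL replicate 3, and 3 and 12 under library totals). Organic ion and peptide transporters had 5 of 22 higher and 10 lower (2 and 12 under library totals); Slc22a4, a carrier of ergothioneine, rose by 1.96 ± 0.13 and the vesicular monoamine carrier Slc18a2 fell by 2.36 ± 0.33. Ion and water channels, like the organic ion and peptide transporters, were lower more often than higher, with 13 of 94 higher and 39 lower (median -0.33, and 8 and 51 under library totals). Kcnh3 had 12.7, 7.92 and 8.58 CPM in KD and 0.208, 0.349 and 0.412 CPM in FL; this potassium channel gene was near 0 in FL (log2 -4.82 ± 0.36, adjusted p = 2.79e-07). Panx1, a channel that releases ATP, fell by 3.28 ± 0.30, and the chloride and proton exchanger Clcn3 rose by 1.07 ± 0.15.

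Promoter sequence was set beside these changes for 9094 of the tested genes. Each window was the 250 bases before the first listed start of the gene in a table from RefSeq. The table is on mouse assembly GRCm38.p6, a later build than the authors' mm9. Whether a listed start is the one used in these cells was not tested. Matches describe letters only and were counted on both strands. AGATAA or TGATAA, a core recognised by GATA factors, stood in 9.44% of all promoters and in 28 of the 158 promoters (17.7%) of genes higher at least 4-fold. It also stood in 14.6% of the promoters of genes lower at least 4-fold. Over all called genes, at any fold, it stood in 8.11% of the promoters of those higher and 10.2% of those lower. CAGCTG or CAGATG, E-boxes that TAL1 dimers can bind, stood in 19.6% of all promoters. The share was 28.5% for genes higher and 22.5% for genes lower at least 4-fold. For all genes called higher and all called lower it was 17.96% and 20.4%. Of the eligible called transporter genes with a GATA match, the 2 with the largest gains are shown. The match, on either strand, is in capitals. Eligible genes had no overlap between the FL and KD libraries and a mean of 5 CPM or more in the higher group. Genes of a single chromosome were left out of the choice as well. The Atp2b4 window lies at chr1:133753748-133753997 on the minus strand and that of Slc44a4 at chr17:34914216-34914465 on the plus strand. Their matches start 206 and 214 bases before the listed start.
Atp2b4: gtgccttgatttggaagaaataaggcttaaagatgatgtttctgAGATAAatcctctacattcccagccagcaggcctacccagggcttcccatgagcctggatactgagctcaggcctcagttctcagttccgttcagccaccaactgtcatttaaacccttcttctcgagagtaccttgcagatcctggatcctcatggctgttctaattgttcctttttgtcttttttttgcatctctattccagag
Slc44a4: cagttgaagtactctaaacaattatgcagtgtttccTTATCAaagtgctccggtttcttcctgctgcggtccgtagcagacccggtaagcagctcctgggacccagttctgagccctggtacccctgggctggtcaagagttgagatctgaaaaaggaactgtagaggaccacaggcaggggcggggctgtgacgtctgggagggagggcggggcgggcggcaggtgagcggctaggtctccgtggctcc

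Signalling genes were called in nearly equal numbers each way: of 670 tested, 223 were higher and 222 lower (154 and 287 under library totals). Csf2rb, Prkcq, the tyrosine phosphatase gene Ptp4a3 and the G protein regulator gene Rgs18 were among the genes that rose, and the chemokine receptor gene Cxcr4, Id1 and Hes1 among those that fell. The PI3K, AKT and mTOR list and the non-receptor tyrosine kinases had more genes higher, a balance that library totals evened out, and G-protein-coupled receptors and the WNT and NOTCH list leaned lower.

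**Figure D3:**
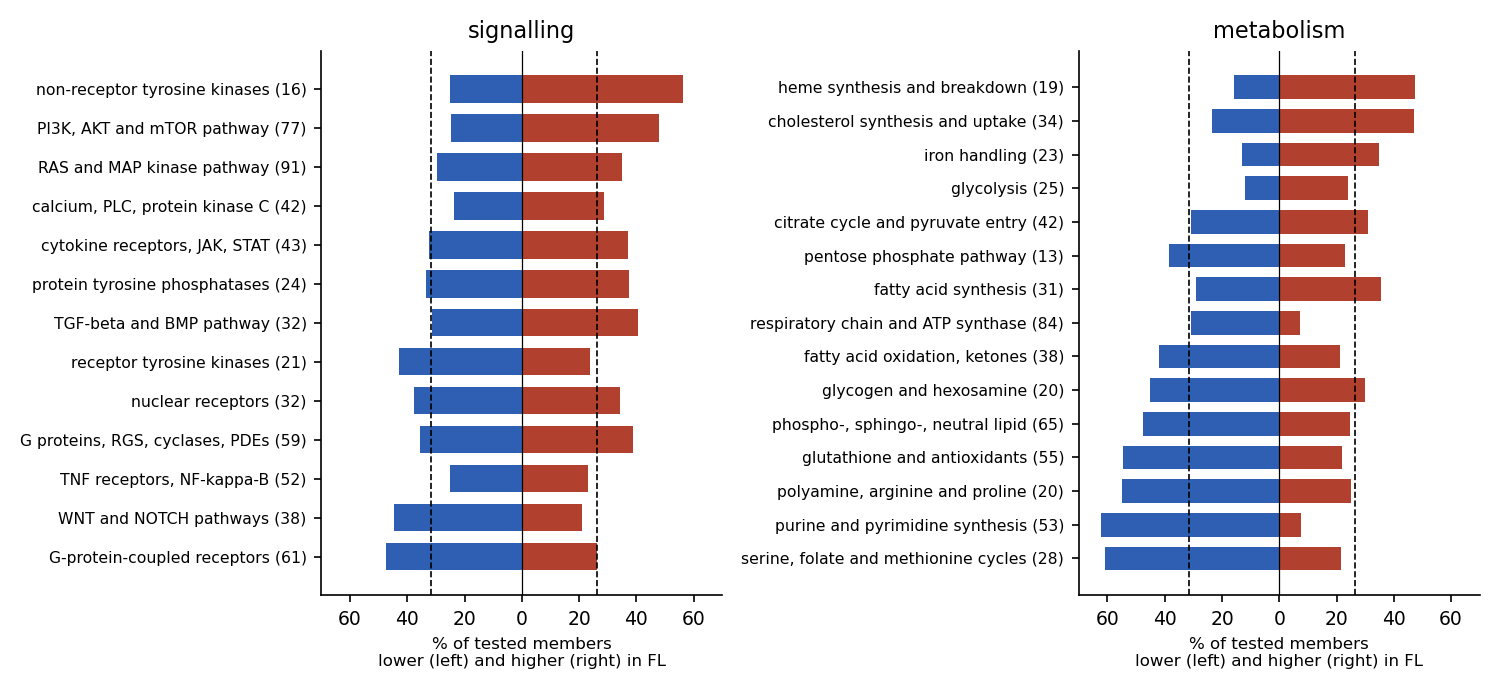
Bars give the percent of tested members called lower (left, blue) and higher (right, red) in FL for signalling lists and metabolism lists, with the number tested in brackets and lists ordered by median change; dashed lines are the shares over all genes, 31.7% lower and 26.3% higher. Purine and pyrimidine synthesis and the serine, folate and methionine cycles reach past 60% lower, and heme synthesis, cholesterol synthesis and the PI3K list past 45% higher.

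The cytokine receptor gene Csf2rb and the protein kinase C gene Prkcq rose, within lists that moved both ways. Of 43 genes of cytokine receptors, JAK, STAT and SOCS, 16 were higher and 14 lower, 9 lower without KD replicate 2, and 10 higher and 17 lower under library totals. Csf2rb was at 305, 369.5 and 425 CPM in the KD libraries and 2691, 2345 and 2536 CPM in the FL libraries; it encodes the signalling chain shared by the receptors of interleukin 3, interleukin 5 and GM-CSF (log2 2.78 ± 0.13, adjusted p = 6.98e-09). Pim1 went from 115, 136 and 142 CPM in KD to 1045, 1046 and 1039.7 CPM in FL; PIM1 is a kinase induced by STAT5, and the FL libraries were nearly equal (log2 2.99 ± 0.13, adjusted p = 3.47e-09). Il6ra fell by 3.28 ± 0.37 and Ifngr2, a receptor chain for interferon gamma, by 1.93 ± 0.14. Prkcq had 35.9, 33.9 and 38.4 CPM in KD and 437, 408 and 456 CPM in FL; protein kinase C theta rose 12.03-fold with no overlap (adjusted p = 3.97e-10), and Prkca rose by 2.01 ± 0.12 on the log2 scale. The calcium, phospholipase C and protein kinase C list had 12 of 42 higher and 10 lower, 19 higher without KD replicate 1, and 10 and 15 under library totals. Among 16 non-receptor tyrosine kinases 9 were higher and 4 lower (median 0.48), or 5 and 5 under library totals. Ptk2b was at 242, 260.3 and 248 CPM in the KD libraries and 691, 619 and 694 CPM in the FL libraries. PTK2B is a calcium-sensitive kinase related to focal adhesion kinase (log2 1.42 ± 0.09, adjusted p = 6.87e-08), Lyn, which acts at the erythropoietin receptor, rose by 1.16 ± 0.13, and Tec fell by 1.48 ± 0.15. Ptp4a3 went from 228, 502 and 741 CPM in KD to 3784, 4405 and 4259 CPM in FL; the means of this tyrosine phosphatase gene were 139.6 CPM in control and 209 CPM in delta45 (log2 3.08 ± 0.31, adjusted p = 3.18e-06), and its list had 9 of 24 higher and 8 lower (8 and 8 without KD replicate 3 or with the replicate block, 6 and 9 under library totals).

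Surface receptors were lower more often than higher. Of 61 G-protein-coupled receptors 16 were higher and 29 lower, with a median of -0.53. Cxcr4 had 64.8, 63.2 and 49.6 CPM in KD and 4.896, 5.12 and 5.18 CPM in FL; CXCR4 holds immature blood cells at sources of CXCL12 (log2 -3.54 ± 0.14, adjusted p = 2.67e-09), and control lay between the groups, at 24.7 ± 2.05 CPM. P2ry1 was at 28.7, 31.2 and 22.7 CPM in the KD libraries and 256, 247 and 253 CPM in the FL libraries; P2RY1 is a receptor for ADP (log2 3.198 ± 0.14, adjusted p = 4.22e-09). Ccr2, a receptor of inflammatory chemokines, rose by 3.41 ± 0.27 from a KD mean of 1.38 CPM, and control and delta45 had means of 0.0726 and 0.159 CPM. P2ry14, a receptor for UDP-glucose, fell by 3.08 ± 0.35. Among 59 G proteins, RGS proteins, adenylate cyclases and phosphodiesterases 23 were higher and 21 lower (24 and 24 without KD replicate 3, 18 and 27 under library totals). The RGS proteins end G protein signals: Rgs18 rose by 2.81 ± 0.30 and Rgs10 by 2.22 ± 0.14, and Rgs2 fell by 2.22 ± 0.27. Receptor tyrosine kinases had 5 of 21 higher and 9 lower. Ephb3 went from 9.76, 11.3 and 13.2 CPM in KD to 104, 118 and 106 CPM in FL. Epha8 had 20.1, 46.5 and 42.03 CPM in KD and 0.625, 0.233 and 0.824 CPM in FL. These ephrin receptors moved in opposite directions, by 3.26 ± 0.14 (adjusted p = 3.58e-09) and -5.86 ± 0.38 (adjusted p = 7.92e-08). Igf2r, which sorts lysosomal enzymes, rose by 1.898 ± 0.20, the growth factor receptor gene Fgfr3 by 1.71 ± 0.19, and Tyro3 fell by 2.27 ± 0.12.

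Target genes of BMP and NOTCH signals were among the losses. Id1 was at 42.04, 83.9 and 80.4 CPM in the KD libraries and 5.21, 10.3 and 8.24 CPM in the FL libraries; Id1 is a direct target of BMP signals (log2 -3.11 ± 0.29, adjusted p = 1.82e-06), and Smad6, another target that feeds back on the pathway, fell by 1.33 ± 0.22. Hes1 went from 35.3, 38.1 and 32.7 CPM in KD to 3.02, 5.12 and 3.71 CPM in FL; Hes1 is a NOTCH target (log2 -3.17 ± 0.19, adjusted p = 3.81e-08) and control was as low as FL, at 3.29 ± 0.510 CPM. Dtx4, a ubiquitin ligase of the NOTCH pathway, fell by 4.18 ± 0.19 and the NOTCH-modifying enzyme Mfng by 2.98 ± 0.34, while the receptor gene Notch3 rose by 2.36 ± 0.27 and the NOTCH effector Rbpj by 1.03 ± 0.29. Rnf43, which removes WNT receptors, rose by 2.53 ± 0.24. WNT and NOTCH pathways had 8 of 38 higher and 17 lower (median -0.30). The TGF-beta and BMP list had 13 of 32 higher and 10 lower, which turned to 9 and 11 without KD replicate 3, to 10 and 10 without FL replicate 1 or FL replicate 3, and to 7 and 13 under library totals. Its receptor Acvr2a rose by 1.62 ± 0.26 and the ligand Tgfb3 fell by 4.22 ± 0.43 (by 5.11 without FL replicate 3).

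Growth and stress pathways were mixed. Of 77 genes of the PI3K, AKT and mTOR pathway 37 were higher and 19 lower (median 0.33), or 24 and 23 under library totals. The adaptor gene Irs2 rose by 1.39 ± 0.28 and the transcription factor gene Foxo3 by 1.79 ± 0.15. Eif4ebp1 had 170.0, 309.8 and 273 CPM in KD and 47.2, 72.8 and 56.3 CPM in FL; 4E-BP1 blocks translation initiation until mTOR phosphorylates it (log2 -2.096 ± 0.25, adjusted p = 1.40e-05). Trib3, a pseudokinase induced by stress, fell by 1.89 ± 0.28. RAS and MAP kinase genes had 32 of 91 higher and 27 lower (23 and 35 under library totals): the MAP kinase phosphatases Dusp8 and Dusp10 rose by 2.31 ± 0.20 and 1.58 ± 0.15, and Rasgrp2, an exchange factor for RAP1, fell by 2.76 ± 0.18. TNF receptors and the NF-kappa-B pathway had 12 of 52 higher and 13 lower, a balance that turned without KD replicate 1 (16 and 10), KD replicate 2 (15 and 11) or FL replicate 1 (12 and 11), was 12 and 12 without FL replicate 2 and 14 and 14 with the replicate block, and went to 8 and 24 under library totals. Tnfrsf18 was at 17.6, 20.2 and 21.1 CPM in the KD libraries and 2.81, 1.74 and 2.12 CPM in the FL libraries. This receptor, GITR, fell without overlap (log2 -3.14 ± 0.23, adjusted p = 1.94e-07), as did Tnfrsf1a, by 1.66 ± 0.13, and the NF-kappa-B partner Bcl3, by 2.24 ± 0.30. Nuclear receptors and their cofactors had 11 of 32 higher and 12 lower, and the order turned without KD replicate 1 (13 and 10), KD replicate 2 (12 and 10) or FL replicate 3 (12 and 11), with 11 each way without FL replicate 2 and 12 each way with the replicate block. The corepressor Ncor1 rose by 1.55 ± 0.17 and Thra, a thyroid hormone receptor, fell by 1.51 ± 0.12.

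Metabolic genes were lower more often than higher: of 541 tested, 126 were higher and 213 lower, with a median of -0.17 (87 and 288 under library totals). Lists for the synthesis of nucleotides, one-carbon units and polyamines and for antioxidant enzymes had more genes lower than higher, and lists for heme and for cholesterol had more higher.

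Nucleotide synthesis was the metabolic list with the largest share lower. Of 53 genes of purine and pyrimidine synthesis and handling, 4 were higher and 33 lower (median -0.82; 7 higher without KD replicate 1). Rrm2 went from 138, 109 and 88.7 CPM in KD to 12.7, 15.3 and 12.01 CPM in FL; it encodes the S-phase subunit of ribonucleotide reductase, which makes deoxynucleotides (log2 -3.08 ± 0.16, adjusted p = 1.40e-08). Dctd had 16.8, 10.2 and 10.9 CPM in KD and 0.417, 0.814 and 0.883 CPM in FL; dCMP deaminase supplies dUMP for thymidylate (log2 -4.11 ± 0.28, adjusted p = 9.96e-08). The 4 genes that rose act in breakdown and salvage: Nt5c3, the pyrimidine nucleotidase of red cells, rose by 1.21 ± 0.26, AMP deaminase Ampd3, the isoform of red cells, by 1.105 ± 0.11, adenosine kinase Adk by 0.87 ± 0.14 and the nucleotidase gene Nt5c2 by 0.55 ± 0.11. The serine, folate and methionine cycles had 6 of 28 higher and 17 lower (median -0.89). Phgdh was at 15.8, 18.5 and 17.2 CPM in the KD libraries and 3.44, 5.35 and 5.296 CPM in the FL libraries; PHGDH and PSPH are the first and last enzymes of serine synthesis and fell by 1.85 ± 0.24 (adjusted p = 2.93e-05) and 1.62 ± 0.12, while Mat2a, which makes S-adenosylmethionine, rose by 0.72 ± 0.18. Genes of polyamine, arginine and proline metabolism had 5 of 20 higher and 11 lower (median -0.67; 3 higher without FL replicate 2 or under library totals). Smox went from 162, 308 and 334 CPM in KD to 1226, 1515 and 1415 CPM in FL; spermine oxidase breaks spermine down (log2 2.37 ± 0.22, adjusted p = 1.69e-06). The spermidine synthase gene Srm fell by 1.84 ± 0.17 and Pycr1 of proline synthesis by 2.703 ± 0.33.

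Heme synthesis genes were higher more often than lower. Of 19 genes of heme synthesis and breakdown 9 were higher and 3 lower, with 7 lower without KD replicate 1 and 8 higher and 7 lower under library totals. Alad had 196, 282 and 369.8 CPM in KD and 964, 1067 and 1084 CPM in FL; it encodes the second enzyme of the pathway (log2 1.88 ± 0.18, adjusted p = 2.37e-06). Hmox1 was at 159.7, 149 and 160.1 CPM in the KD libraries and 43.03, 40.8 and 46.2 CPM in the FL libraries; heme oxygenase 1 breaks heme down, and its FL libraries were all below the KD libraries (log2 -1.85 ± 0.15, adjusted p = 5.03e-07). Of 23 iron handling genes 8 were higher and 3 lower, or 6 and 6 under library totals: Ncoa4, the receptor for ferritin degradation, rose by 1.87 ± 0.19 and the iron regulatory protein gene Ireb2 by 1.29 ± 0.23.

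Lipid genes split by pathway. Cholesterol synthesis and uptake had 16 of 34 higher and 8 lower (median 0.33). Msmo1 went from 15.8, 12.05 and 24.95 CPM in KD to 112, 112 and 115 CPM in FL; this sterol methyl oxidase acts late in cholesterol synthesis (log2 2.68 ± 0.20, adjusted p = 2.25e-07), and Mvd, which acts before the sterol ring is formed, rose by 1.93 ± 0.13. Named after their values were seen, the higher members also held Idi1 at 1.67 ± 0.38, Cyp51 at 1.79 ± 0.12, and Srebf2, the transcription factor gene of the pathway, at 1.13 ± 0.13. Soat2, which esterifies cholesterol, fell by 1.13 ± 0.14 and the oxysterol receptor gene Nr1h3 fell by 1.46 ± 0.16. Fatty acid synthesis and desaturation had 11 of 31 higher and 9 lower (8 and 14 under library totals); Fads3 rose by 1.904 ± 0.15, the desaturase gene Scd1 by 2.21 ± 0.27 (2.84 without KD replicate 1), and the acetyl-CoA carboxylase gene Acacb fell by 2.01 ± 0.22. Fatty acid oxidation and ketone bodies had 8 of 38 higher and 16 lower (4 and 21 under library totals). Hadh had 108, 93.03 and 81.6 CPM in KD and 12.8, 14.2 and 16.3 CPM in FL; it acts in mitochondrial beta-oxidation (log2 -2.701 ± 0.14, adjusted p = 1.03e-08), and the long-chain acyl-CoA dehydrogenase gene Acadl fell by 1.86 ± 0.18, while the peroxisomal oxidase gene Acox3 rose by 1.42 ± 0.13. Phospholipid, sphingolipid and neutral lipid genes had 16 of 65 higher and 31 lower (median -0.30): the phosphatidate phosphatase gene Lpin2 rose by 1.63 ± 0.11, the sphingomyelin synthase gene Sgms1 by 1.59 ± 0.12, and the triglyceride synthesis gene Dgat2 fell by 2.43 ± 0.20.

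Lists of energy metabolism differed in their share of calls, and antioxidant genes were lower more often than higher. Glycolysis had 6 of 25 higher and 3 lower (6 lower without KD replicate 1, and 6 and 6 under library totals), with Pfkfb2, which sets the level of a glycolytic activator, up by 1.54 ± 0.16 and the enolase gene Eno1 down (log2 -0.99 ± 0.19). The pentose phosphate pathway had 3 of 13 higher and 5 lower (4 and 4 without KD replicate 3, 1 and 6 under library totals), H6pd, its enzyme in the endoplasmic reticulum, falling by 2.07 ± 0.14. The citrate cycle with pyruvate entry had 13 of 42 each way, but 7 higher and 18 lower under library totals; without 1 library it had 11 to 15 higher and 12 to 13 lower. Gls2 was at 30.2, 26.7 and 26.97 CPM in the KD libraries and 3.23, 5.12 and 5.24 CPM in the FL libraries; it encodes the liver-type glutaminase and its libraries did not overlap (log2 -2.61 ± 0.21, adjusted p = 4.16e-07). Pyruvate carboxylase Pcx rose by 1.396 ± 0.14 and isocitrate dehydrogenase Idh2 fell by 1.63 ± 0.15. Respiratory chain and ATP synthase genes had 6 of 84 higher and 26 lower (median -0.16); 17 were higher without KD replicate 3 and 45 lower under library totals. Glutathione, thioredoxin and antioxidant genes had 12 of 55 higher and 30 lower (median -0.47; 6 and 35 under library totals). Gsto1 went from 54.8, 42.99 and 34.7 CPM in KD to 4.69, 6.05 and 5.18 CPM in FL; this omega-class glutathione transferase fell without overlap (log2 -3.06 ± 0.18, adjusted p = 3.47e-08). The members with the largest gains that the naming rule took were the peroxiredoxin gene Prdx2, which rose by 1.35 ± 0.27, the lipid peroxidase gene Gpx4, by 1.25 ± 0.15, and the catalase gene Cat, by 1.12 ± 0.09. Glycogen and hexosamine genes had 6 of 20 higher and 9 lower (3 and 12 under library totals), Ogt, which attaches O-linked GlcNAc, rising by 2.19 ± 0.31.

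Of the 4 themes, cell cycle genes had the largest share of calls and the least even balance. Of 314 tested, 33 were higher and 212 lower, with a median of -0.87 (20 and 240 under library totals). The replication list had 46 of 51 genes lower and the mitosis list 57 of 57. Among genes that restrain the cycle, the retinoblastoma family members Rb1 and Rbl2, Cdkn1b, Btg2 and Mxd1 were higher. The other CDK inhibitors tested were lower or not called.

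**Figure D4:**
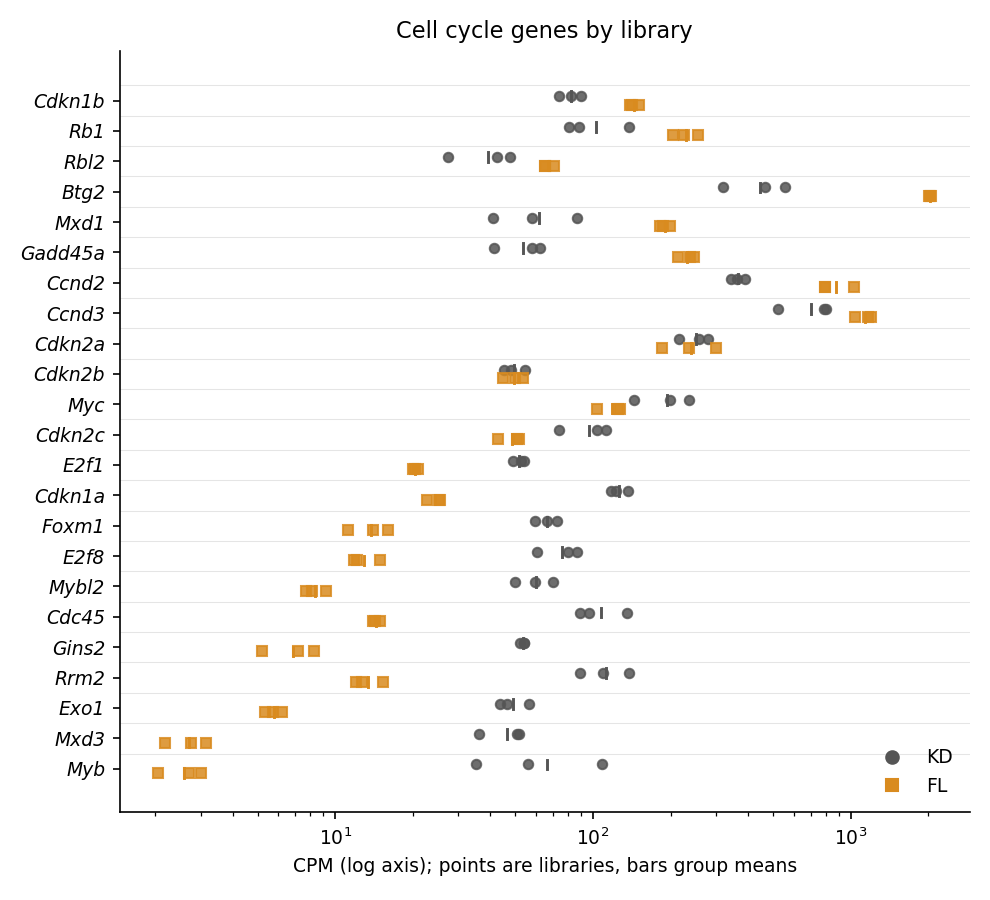
Points are single libraries (grey circles KD, orange squares FL) and short bars group means, in CPM on a log axis, for 23 cell cycle genes. Rows are grouped by direction of change and not by function. The D cyclin genes Ccnd2 and Ccnd3 are in the upper group, and the CDK inhibitor genes Cdkn2c and Cdkn1a are in the lower group. Cdkn1b to Ccnd3 lie higher in FL, Cdkn2a and Cdkn2b overlap, and from Myc downward all FL libraries lie below the KD libraries.

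The CDK inhibitors did not move as a group: of 7 tested, 1 was higher and 4 lower. A further listed inhibitor, Cdkn2d, was not matched to a gene in the counts and so was not tested. Cdkn1b had 82.3, 89.99 and 73.5 CPM in KD and 139, 151 and 142 CPM in FL; p27 binds cyclin-CDK complexes in cells that stop dividing (log2 0.81 ± 0.12, adjusted p = 1.07e-04), and control was higher than both, at 203 ± 30.5 CPM. Cdkn1a was at 123, 136 and 118 CPM in the KD libraries and 25.4, 22.7 and 25.2 CPM in the FL libraries; p21, the inhibitor induced by p53, moved the opposite way (log2 -2.36 ± 0.12, adjusted p = 1.38e-08), and its FL libraries were near the control mean of 33.5 ± 4.81 CPM. Cdkn1c, encoding p57, fell by 1.699 ± 0.28, Cdkn2c, encoding p18, by 0.99 ± 0.15, and the phosphatase gene Cdkn3 by 1.33 ± 0.22. Cdkn2a (log2 -0.06 ± 0.18, adjusted p = 0.787) and Cdkn2b (log2 0.00 ± 0.11, adjusted p = 0.982) were not called, and their libraries overlapped. Of the 12 genes of pocket proteins and the MuvB complexes, 2 were higher and 7 lower. Rb1 went from 138, 80.98 and 88.2 CPM in KD to 255, 204 and 226 CPM in FL; the KD libraries were uneven but all below FL (log2 1.16 ± 0.24, adjusted p = 0.00109). Rbl2, encoding p130, the pocket protein of resting cells, rose by 0.77 ± 0.18, and Rbl1, encoding p107, fell by 1.05 ± 0.20. Mybl2, the MYB protein of the mitotic MuvB complex, fell by 2.83 ± 0.14 and its partner Foxm1 by 2.27 ± 0.15. The MuvB core genes Lin9, Lin37 and Lin52 were not called and Lin54 had a change of -0.56 ± 0.19, a call that some left-out libraries ended. Myb, which keeps progenitors dividing, fell by 4.72 ± 0.37 (by 4.11 without KD replicate 1). Mybl1 had a change of -1.28 ± 0.46 and lost its call without KD replicate 1, FL replicate 1 or FL replicate 3.

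Among other antiproliferative genes, Btg2 and Mxd1 were higher. Btg2 had 319, 465 and 553 CPM in KD and 2007, 2024 and 2049 CPM in FL; BTG2 is an antiproliferative protein that speeds mRNA decay, and the FL libraries were nearly equal (log2 2.19 ± 0.17, adjusted p = 3.59e-07). It was the called gene of 5 BTG and TOB genes, Btg1, Btg3, Tob1 and Tob2 not being called (2 of them were lower under library totals). The MXD proteins compete with MYC for MAX. Mxd1 was at 40.9, 58.1 and 86.3 CPM in the KD libraries and 199, 188 and 181 CPM in the FL libraries. Mxd3 went from 36.04, 51.7 and 50.9 CPM in KD to 2.19, 3.14 and 2.77 CPM in FL. Mxd1 rose by 1.62 ± 0.20 (adjusted p = 2.34e-05) and Mxi1 by 1.01 ± 0.12, while Mxd3, the member expressed in dividing cells, fell by 4.09 ± 0.20 (adjusted p = 9.02e-09). Myc itself fell by 0.70 ± 0.15 and Max by 0.46 ± 0.13, and the network had 3 of 10 higher and 3 lower (5 higher without KD replicate 1). In the p53 pathway 9 of 26 were higher and 9 lower (14 and 6 without KD replicate 1, 8 and 6 without KD replicate 2, 8 and 11 under library totals), with the growth arrest gene Gadd45a up by 2.12 ± 0.14 and Pidd1, a death domain gene, down (log2 -1.68 ± 0.22).

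D-type cyclin genes rose while most other cyclin and CDK genes fell. Of 25 genes 4 were higher and 14 lower (median -0.80). Ccnd2 had 362, 387 and 342 CPM in KD and 1027, 797 and 796 CPM in FL. Ccnd3 was at 520.2, 805 and 785 CPM in the KD libraries and 1042, 1196 and 1168 CPM in the FL libraries. The D cyclins act in G1 and rose by 1.26 ± 0.12 (adjusted p = 2.74e-06) and 0.69 ± 0.16 (adjusted p = 0.00240), and the phosphatase gene Cdc25b rose by 1.03 ± 0.09. Pkmyt1, which holds CDK1 inactive, fell by 2.65 ± 0.22, and the CDK subunit genes Cks2 and Cks1b by 2.26 ± 0.21 and 2.12 ± 0.14. E2F and DP factors had 2 of 10 higher and 6 lower (1 and 7 under library totals): Tfdp2 rose by 1.61 ± 0.17, E2f1 fell by 1.34 ± 0.11, and the repressors E2f7 and E2f8, which cycling cells express, fell by 2.06 ± 0.27 and 2.55 ± 0.16. E2f5 was called higher at 0.79 ± 0.24 and lost the call under library totals.

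Nearly all replication and mitosis genes fell. Of 51 genes of origin licensing and the replisome 2 were higher and 46 lower, with a median of -1.68. Cdc45 went from 88.7, 96.7 and 135 CPM in KD to 13.96, 14.3 and 14.9 CPM in FL; CDC45 and the GINS proteins activate the replicative helicase (log2 -2.89 ± 0.15, adjusted p = 1.22e-08). Gins2 had 54.03, 52.1 and 53.9 CPM in KD and 5.21, 8.25 and 7.18 CPM in FL (log2 -2.95 ± 0.15, adjusted p = 9.02e-09). The 2 higher members were the origin recognition subunits Orc4, at 1.08 ± 0.27, and Orc3, at 0.51 ± 0.15, and Orc3 lost its call under library totals. All 57 kinetochore, spindle and mitotic kinase genes tested were lower, with a median of -1.84, and all 57 were still lower under library totals. Espl1 was at 167, 162 and 107 CPM in the KD libraries and 26.9, 25.8 and 25.4 CPM in the FL libraries; separase cuts the cohesin that joins sister chromatids (log2 -2.48 ± 0.16, adjusted p = 5.44e-08). Cenpm of the kinetochore fell by 3.14 ± 0.24 and the condensin gene Ncapg by 2.49 ± 0.18. Of 42 genes of the DNA damage checkpoint and homologous recombination 2 were higher (1 without FL replicate 2 or FL replicate 3, and 0 under library totals) and 32 lower (median -1.04). Exo1 went from 56.3, 43.6 and 46.4 CPM in KD to 5.73, 5.35 and 6.24 CPM in FL; this nuclease resects DNA ends (log2 -3.07 ± 0.14, adjusted p = 6.19e-09), and the recombination gene Rad54l fell by 3.02 ± 0.11. The anaphase-promoting complex and SCF list had 6 of 25 higher and 10 lower, with 3 higher without FL replicate 1, 2 without FL replicate 3 and 0 under library totals. Its activator Cdc20 fell by 1.98 ± 0.13 and its inhibitor Fbxo5 by 1.95 ± 0.15. RNA polymerase I and ribosome biogenesis had 2 of 51 higher (1 without FL replicate 1 or under library totals) and 29 lower, with a median of -0.42, the ribosome assembly gene Ebna1bp2 falling by 1.37 ± 0.14 and Gar1, of the RNA-guided pseudouridylation particles, by 1.33 ± 0.17.

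The octamers TTTCCCGC or TTTGGCGC, forms of the E2F site, stood on either strand in 2.69% of the 9094 promoters. They stood in 7 of the 42 promoters of the licensing and replisome list (16.7%), in 5 of 32 of the recombination list (15.6%), in 4 of 51 of the mitosis list (7.84%) and in 3.05% of promoters of all genes lower at least 4-fold. The E-box CACGTG of MYC and MAX stood in 8.56% of all promoters, 9.52% of those of the licensing list and 8.89% of those of the ribosome biogenesis list. Of the called genes of the licensing and replisome list with an E2F match, the 3 with the largest losses are shown. Eligibility, table and build were as above, and the matches are in capitals. Mcm5 lies at chr8:75109259-75109508 on the plus strand, Mcm6 at chr1:128359706-128359955 on the minus strand and Mcm7 at chr5:138171884-138172133 on the minus strand.
Mcm5: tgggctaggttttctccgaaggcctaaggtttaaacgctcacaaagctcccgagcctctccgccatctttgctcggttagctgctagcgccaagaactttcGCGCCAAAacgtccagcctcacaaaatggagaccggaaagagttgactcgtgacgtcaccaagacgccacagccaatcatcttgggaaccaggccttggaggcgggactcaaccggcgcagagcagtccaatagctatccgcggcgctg
Mcm6: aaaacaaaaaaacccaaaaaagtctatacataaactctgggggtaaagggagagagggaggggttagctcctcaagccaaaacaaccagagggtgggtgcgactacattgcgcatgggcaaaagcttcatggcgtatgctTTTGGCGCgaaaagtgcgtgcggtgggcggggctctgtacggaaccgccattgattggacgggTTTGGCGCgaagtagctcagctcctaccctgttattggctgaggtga
Mcm7: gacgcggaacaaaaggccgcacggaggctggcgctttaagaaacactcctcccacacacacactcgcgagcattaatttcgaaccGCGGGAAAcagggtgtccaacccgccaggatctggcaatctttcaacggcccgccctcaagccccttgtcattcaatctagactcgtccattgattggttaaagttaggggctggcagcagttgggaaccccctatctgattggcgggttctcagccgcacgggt
These genes encode subunits of the MCM helicase. The Mcm6 window holds 2 matches, which start 110 and 47 bases before the listed start. The others hold 1 each, at 149 bases for Mcm5 and 165 bases for Mcm7. Mcm6 had 243, 221 and 234 CPM in KD and 45.6, 44.2 and 52.4 CPM in FL (log2 -2.29 ± 0.10, adjusted p = 4.22e-09). Mcm5 fell by 2.42 ± 0.12 and Mcm7 by 2.29 ± 0.11.

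The late maturation list had more genes higher than lower. Whether FL cells were at a later stage was not tested. Of 26 genes of chromatin, ubiquitin and nuclear condensation 19 were higher and 4 lower, with a median of 1.21. Sox6 was at 13.7, 7.06 and 7.35 CPM in the KD libraries and 79.7, 64.4 and 61.03 CPM in the FL libraries; SOX6 acts in terminal red cell maturation (log2 2.84 ± 0.22, adjusted p = 3.27e-07). Bcl11a, a repressor of embryonic globin, fell by 0.78 ± 0.15 and the histone H4 methyltransferase gene Kmt5a by 0.85 ± 0.10. Autophagy and mitophagy genes had 21 of 46 higher and 4 lower; 2 were lower without KD replicate 2, FL replicate 1 or FL replicate 3, and 14 were higher and 11 lower under library totals. The mitophagy receptor gene Bnip3l rose by 1.42 ± 0.17. Actin and adhesion genes had 20 of 55 higher and 17 lower (13 and 24 under library totals). Tmsb4x went from 731, 381 and 501 CPM in KD to 4056, 4263 and 4556 CPM in FL; thymosin beta 4 binds actin monomers (log2 2.997 ± 0.21, adjusted p = 5.01e-07). Selplg had 32.1, 29.6 and 27.7 CPM in KD and 1.77, 1.28 and 1.06 CPM in FL; the selectin ligand PSGL-1 fell without overlap (log2 -4.48 ± 0.18, adjusted p = 2.81e-09), and Anxa2, which binds membranes with calcium, fell by 2.95 ± 0.35.

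**Figure D5:**
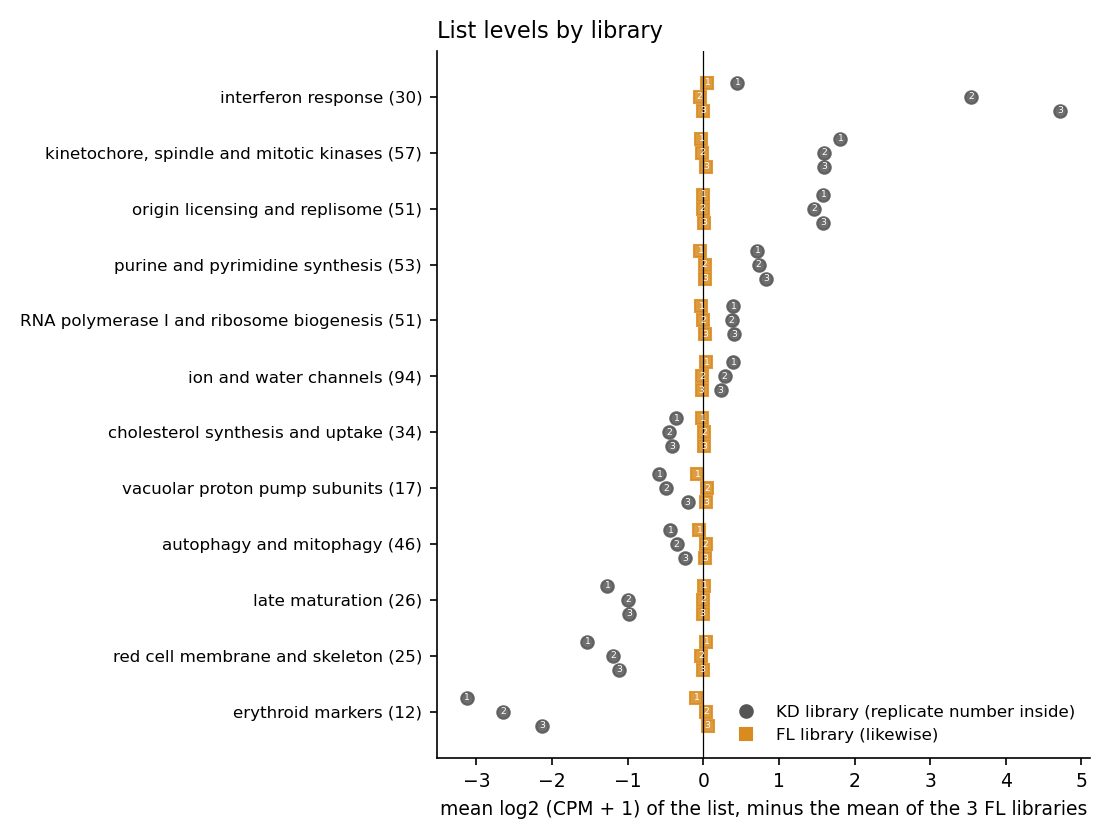
Each row is a gene list (members tested in brackets), and each point the mean log2 (CPM + 1) of its members in 1 library minus the mean over the FL libraries, with grey circles for KD, orange squares for FL and the replicate number inside. The KD libraries lie close together for replication, mitosis and nucleotide synthesis, and spread from 0.446 to 4.72 for the interferon genes, where replicate 1 is near the FL libraries.

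The 3 KD libraries did not deviate from FL to the same degree in every list. For origin licensing and the replisome they stood 1.58, 1.47 and 1.59 above the FL mean, and for the mitosis list 1.804, 1.599 and 1.595. KD replicate 1 was also the lowest library for erythroid markers and for the red cell membrane list. Whether the interferon level or the RNA measures of replicate 1 have a part in the other differences was not tested.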

How the data were processed

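Whole-number counts per Ensembl gene were deposited for each library, not normalized. Per the labels' protocols, RNeasy columns gave the RNA and the TruSeq RNA kit V2 the libraries; that kit leaves the strand unmarked, so overlapping and antisense genes cannot be told apart. The submitters' processing notes list build mm9, DESeq 1.10.1, HTSeq 0.5.3p9, TopHat 1.4.1 and cutadapt 1.1, with order, settings and annotation not given in the sources used here. In each file 5 closing rows name no gene and entered neither the library sizes nor the tests. Reads aligned to several places were 42.7 to 48.5% of tallied reads in KD and 42.3 to 47.1% in FL, so genes with near-identical copies (Hba-a1 and Hba-a2, Hbb-bs and Hbb-bt, Csf2rb and Csf2rb2, Gapdh, Fbl) are uncertain. Symbols matched 32919 of 37991 identifiers.

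Genes that passed filterByExpr were tested by edgeR's quasi-likelihood method (version 4.0.16, R 4.3.3) with TMM factors, with 1 mean for each of 4 groups and all 12 libraries. SE is the absolute log2 change over the root of F. A gene with no reads in a group has a bound against 3 reads over the group, and 1 with 1 to 3 reads an exact binomial interval at the 95% level; both cover counting error only. With 3 libraries against 3, exact permutation reaches no two-sided p under 0.1, and calls therefore use the variance that edgeR shares across genes. Libraries within FL and within KD all differed by more than counting noise (smallest chi-square per degree of freedom 3.86 in FL and 31.3 in KD). On simulated counts for FL against KD in 12837 genes, 50 genes were changed at each of 4 folds. Of these, 20% of changes of 1.5-fold, 60% of 2-fold, 88% of 4-fold and 94% of 8-fold were called, with 6 false calls. Far fewer genes changed in the simulation than the 58.0% called in the data, which alters the cutoff of the adjusted p-value. The rates therefore check the procedure and do not give the recovery or the false calls of this comparison.

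The gene lists and the rule for named genes were chosen with earlier results of these data known, and a list is described by counts and a median, not tested. The rule took Ldb1 and its partners, the 12 largest changes each way among called genes of 5 CPM or more without overlap (clone, predicted, pseudogene and histone names left out), up to 3 genes each way from each transporter, signalling, metabolism and cell cycle list and up to 2 from each other list, and every tested CDK inhibitor, pocket protein, MuvB, BTG and TOB gene. Genes outside it that are named (Idi1, Cyp51, Srebf2, Nt5c2, Mcm5, Mcm6, Mcm7, Malat1, Slc29a2, Slc30a3, and single markers of other cell types) were chosen after their values were seen. Titles give FL and KD libraries the numbers 1 to 3. Deviations from the group means of same-numbered libraries correlated at 0.326, 0.141 and 0.312. Libraries with unlike numbers correlated at -0.341 to 0.159, and FL replicate 2 was closer to KD replicate 3 (0.159) than to KD replicate 2. The numbers were taken as pairs in the replicate block only, from these data and not from a statement in the labels. Reported changes, SEs and p-values come from the fit without that block. Alternatives were RLE scaling, library totals, other count filters, only the 6 FL and KD libraries, a replicate block, a test against 1.5-fold, DESeq2 1.42.0 and leaving out each library. Some genes that the rule took are not reported here.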

Additional observations from a re-analysis of the deposited data

How the results depend on the processing

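Of the 349 named genes that were called, 324 kept their direction and call under every alternative other than the test against 1.5-fold, which was run for counts of genes only, 25 lost the call in at least 1 of them, and none changed direction with a call. Scaling to library totals alone gave 2048 genes higher in all, 60 transporter genes higher and 20 cell cycle genes higher, against 3382, 96 and 33, and changed the call of 22 named genes. Testing against a fold change of 1.5 gave 1358 genes higher and 2152 lower. Leaving out each library in turn gave 2889 to 3965 genes higher and 3520 to 3981 lower, and the counts of the 4 themes stayed within 1.5 times the reported ones. With the numbers taken as pairs, the replicate block gave 3514 higher and 4113 lower and changed no named gene's call. With only the 6 FL and KD libraries in the fit, the number lower was 6 for metal ion transporters, 3 for nucleotide sugar carriers, 9 for cytokine receptors, 16 for the respiratory chain, 18 for antioxidant genes, 5 for the p53 pathway, and 2 each for autophagy and for late maturation. DESeq2 gave 3596 higher and 4015 lower, and 10 respiratory chain genes higher. Fold changes of genes at a few reads are limited by depth, 8783970 to 19384213 gene reads per library, and genes with near-identical copies by reads that aligned to several places.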
